A study of Homo sapiens with 4 samples.

Results

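The muscle miRNAs, or myomiRs, were followed by name through 4 small RNA libraries, made from cells and from purified exosomes of the human breast lines MDA-MB-231 and MCF-10A. The set held 8 of the 1100 mature names listed in every library, and all 8 were found by an exact match of the name, with no passenger (star) names. miR-206 was grouped as the skeletal muscle member, and miR-208a and miR-208b as the cardiac members. The other 5 names, miR-1, miR-133a, miR-133b, miR-499-5p and miR-499-3p, were grouped as shared by heart and skeletal muscle. Whether a member is restricted to its tissue was not tested. MDA-MB-231 comes from a triple-negative breast cancer and is called the cancer line in what follows. MCF-10A comes from mammary epithelium that is not transformed, and exosomes are the small vesicles released by cells. The cancer line was grown in DMEM with 10% fetal bovine serum. MCF-10A was grown in DMEM/F12 with 5% horse serum, EGF at 20 ng/ml, insulin at 10 µg/ml, hydrocortisone at 0.5 µg/ml and cholera toxin at 0.1 µg/ml. The line and its medium, serum included, thus cannot be told apart. RNA came out of cells with TRIzol and out of exosomes with TRIzol LS, so the extraction reagent and the fraction cannot be told apart. How exosomes were purified is not given in the sources used here. Each of the 4 groups held 1 library, so differences could not be set against a spread between replicates and no p-value is given.

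MyomiRs are made in striated muscle, where the factors that drive the muscle programme switch on their genes. miR-1 and miR-206 promote the differentiation of muscle cells, and miR-133 is known to act on the proliferation of their precursors. miR-208a, miR-208b and miR-499 lie within introns of myosin heavy chain genes and take part in setting which myosins a fibre makes. Breast epithelium is not a known site of high myomiR levels.

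Mature sequences of all 8 members were found in RefSeq (GRCh38.p14). They are shown because the members fall into groups by their seed, bases 2 to 8, which is written in capitals and largely sets which mRNAs a miRNA binds. miR-1 and miR-206 shared the seed GGAAUGU, miR-133a and miR-133b the seed UUGGUCC, and miR-208a and miR-208b the seed UAAGACG.
hsa-miR-1: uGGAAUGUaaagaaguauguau
hsa-miR-206: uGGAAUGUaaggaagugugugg
hsa-miR-133a: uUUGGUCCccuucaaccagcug
hsa-miR-133b: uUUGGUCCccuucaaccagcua
hsa-miR-208a: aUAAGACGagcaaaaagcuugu
hsa-miR-208b: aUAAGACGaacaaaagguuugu
hsa-miR-499-5p: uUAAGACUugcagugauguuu
hsa-miR-499-3p: aACAUCACagcaagucugugcu

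Within a seed group the members differed outside the seed. With positions counted from 1 at the 5′ end and the base of the first-named miRNA first, miR-1 and miR-206 differed by A11G, A17G, A21G and U22G. miR-208a and miR-208b differed by G10A, A16G and C18U. miR-133a and miR-133b differed only by G22A, at the last base. A read that stops before that base fits either name, and how the authors assigned such reads is not given in the sources used here, so the split of reads between miR-133a and miR-133b is uncertain. The seed of miR-499-5p differed from that of the miR-208 pair only in its last base, and bases 2 to 7 were the same.

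The deposited files give no coordinates. Those that follow are GRCh38, from GENCODE release 29, matched by gene name, while the submitters' processing notes name hg18. miR-1 and miR-133a are each made at 2 places, as neighbours on the same strand. MIR1-1 (chr20:62554306-62554376, plus strand) and MIR133A2 (chr20:62564912-62565013) lie 10535 bases apart, the first in an intron and the second overlapping an exon of MIR1-1HG. MIR1-2 (chr18:21829004-21829088, minus strand) and MIR133A1 (chr18:21825698-21825785) lie 3218 bases apart, in exons of MIR133A1HG and opposite an intron of MIB1. MIR206 (chr6:52144349-52144434, plus strand, outside annotated genes) lies 4488 bases from MIR133B (chr6:52148923-52149041), which sits opposite an intron of LINCMD1. MIR208A (chr14:23388596-23388666, minus strand) lies in an intron of MYH6, the alpha myosin heavy chain gene, and MIR208B (chr14:23417987-23418063) in an intron of its neighbour MYH7, the beta myosin heavy chain gene. MIR499A (chr20:34990376-34990497, plus strand) lies in an intron of MYH7B.

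Levels are given as deposited, on the scale log2 of reads per 10000000 miRNA reads plus 1. Whole reads were recovered from the steps of the low values, and the total was 10937870 miRNA reads in the library labelled MCF-10A cell, 1532909 in cancer-line exosomes, 1254641 in MCF-10A exosomes and 7346080 in cancer-line cells. The first of these stood apart in its content. Names on 11 lists of other tissues (73 names, members not among them) held 39.3% of its reads, against 3.04% in cancer-line exosomes, 0.419% in cancer-line cells and 0.161% in MCF-10A exosomes. Most of the 39.3% was smooth muscle, whose 4 names held 28.1%, with 27.1% from miR-143 alone. The 8 miRNAs listed for breast epithelium were all above 0 in it and held 1.01% of its reads, against 4.42% in MCF-10A exosomes. Of the reads behind the 4.42%, miR-200c made up 85.0%. Name by name, 6 of the 8 lay within 4-fold, 2 were higher in the exosomes and 0 lower, with a median log2 difference of 0.28. The list as a whole thus did not set these libraries apart. Together the 8 names held 0.0459% of cancer-line cells and 0.0232% of cancer-line exosomes. Because of its names of other tissues, the library that stood apart is named by its label throughout. Whether its RNA came from MCF-10A cells alone was not tested, so each comparison with it is a comparison with that library and not with a line or a fraction. In such bulk samples fewer cells of a type and less RNA per cell cannot be told apart.

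All 8 members were above 0 in the library labelled MCF-10A cell, 4 were above 0 in cancer-line exosomes, 2 in cancer-line cells and 1 in MCF-10A exosomes. Of all 1100 names, 794, 508, 566 and 436 were above 0 in these libraries, in the same order. The libraries also differ in depth, so the counts of members above 0 give no support of their own. Together the members held 12.4% of reads in the library labelled MCF-10A cell (Wilson 95% interval 12.4 to 12.5). They held 0.0181% in cancer-line exosomes (0.0161 to 0.0203), with 277 reads. The other libraries had 8 reads of members (cancer-line cells) and 2 (MCF-10A exosomes). The library labelled MCF-10A cell thus held nearly all member reads, and cancer-line exosomes were next.

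**Figure D1:**
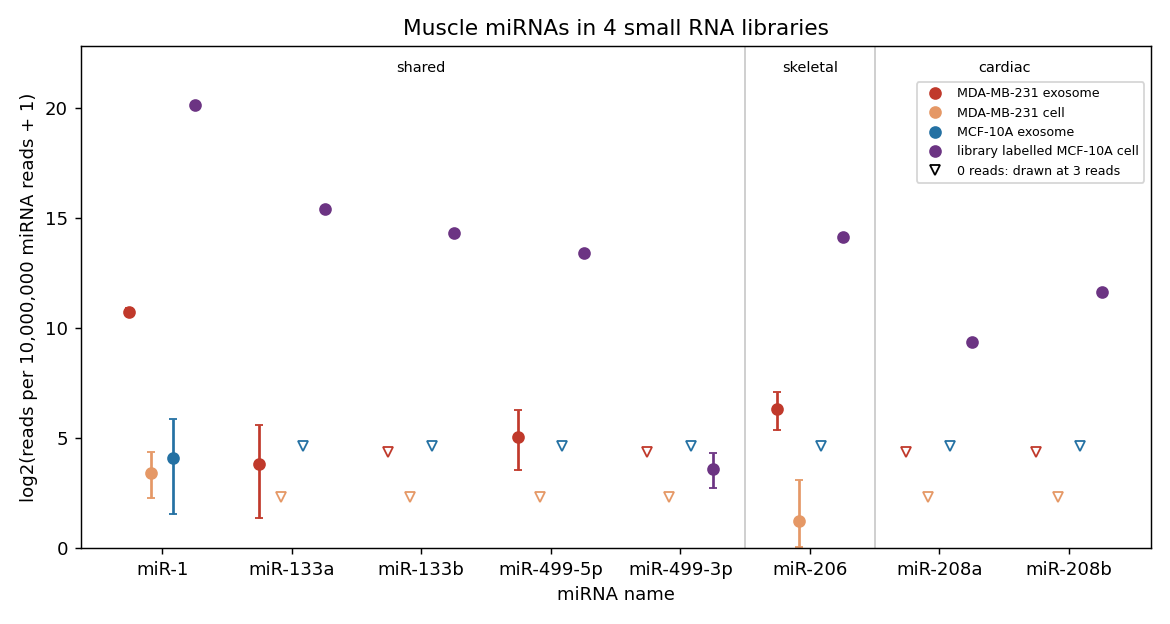
Level of each muscle miRNA (log2 of reads per 10,000,000 miRNA reads plus 1) in the 4 libraries. Circles are the deposited values with exact 95% Poisson intervals on the recovered reads, and open triangles mark names with 0 reads, drawn at the level of 3 reads. The library labelled MCF-10A cell is highest for every member that clears the limits of the other libraries, and miR-499-3p (12 reads) does not clear those of the exosome libraries.

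hsa-miR-1, the most abundant member, stood at 20.13 in the library labelled MCF-10A cell, 10.72 in cancer-line exosomes, 4.08 in MCF-10A exosomes and 3.40 in cancer-line cells. It was the only member above 0 in all 4 libraries. In reads this was about 1255065, known only to the deposited rounding of 0.347%, and then 258, 2 and 7. The level per 10000000 was 1683 in cancer-line exosomes (exact Poisson 95% interval 1484 to 1901), 9.53 in cancer-line cells (3.83 to 19.6) and 15.9 in MCF-10A exosomes (1.93 to 57.6). The intervals of cancer-line cells and MCF-10A exosomes overlapped, so their order was not detectable at this depth. By rank miR-1 was name 2 of the 794 above 0 in the library labelled MCF-10A cell and name 116 of 508 in cancer-line exosomes. It ranked 363 of 436 in MCF-10A exosomes and 411 of 566 in cancer-line cells.

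hsa-miR-133a stood at 15.39 in the library labelled MCF-10A cell, where it ranked 37, at 3.81 (2 reads) in cancer-line exosomes, and at 0 in the remaining libraries. hsa-miR-133b was at 0 in 3 libraries and at 14.33 in the library labelled MCF-10A cell. With 0 reads a level of up to 3 reads is possible, or 19.6 per 10000000 in cancer-line exosomes, 4.08 in cancer-line cells and 23.9 in MCF-10A exosomes. The 2 reads of miR-133a in cancer-line exosomes lie below the limit of MCF-10A exosomes, so the exosome libraries could not be ordered for either miR-133 name.

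hsa-miR-206 is the member grouped as skeletal. It stood at 14.11 in the library labelled MCF-10A cell, 6.31 (12 reads) in cancer-line exosomes, 1.24 (1 read) in cancer-line cells and 0 in MCF-10A exosomes. Per 10000000 it was 78.3 in cancer-line exosomes (40.4 to 137), above the 23.9 that 0 reads allow in MCF-10A exosomes. By reads it was the second member of cancer-line exosomes, while it ranked behind miR-133a and miR-133b, as their reads were split, in the library labelled MCF-10A cell.

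The cardiac members had reads only in the library labelled MCF-10A cell, where hsa-miR-208a stood at 9.38 (728 reads) and hsa-miR-208b at 11.64 (3490 reads). miR-208a, from the intron of MYH6, was the lower of the pair there, with 479 reads of miR-208b per 100 of miR-208a (exact 95% interval 442 to 520). In the other 3 libraries both were at 0, which allows no more than the limits given above.

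miR-499 comes from a hairpin with reads named for both arms. The MIR499A hairpin of RefSeq (GRCh38.p14, chr20:34990376-34990497, plus strand) is shown with miR-499-5p and then miR-499-3p in capitals, because the arms differed so widely in reads.
MIR499A: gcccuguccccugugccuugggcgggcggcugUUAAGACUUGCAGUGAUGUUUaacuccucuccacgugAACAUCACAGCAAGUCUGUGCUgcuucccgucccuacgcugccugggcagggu
hsa-miR-499-5p stood at 13.38 (11659 reads) in the library labelled MCF-10A cell, 5.07 (5 reads) in cancer-line exosomes, and 0 in the remaining libraries. hsa-miR-499-3p was at 0 in 3 libraries and had 12 reads (3.58) in the library labelled MCF-10A cell, or 0.103 per 100 reads of the 5p arm (0.0532 to 0.180). The 3p arm was the lowest of the 8 members there, at rank 602 of 794. Its level, 11.0 per 10000000, lies under the 3-read limits of both exosome libraries, so its absence from them was not informative at their depths.

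**Figure D2:**
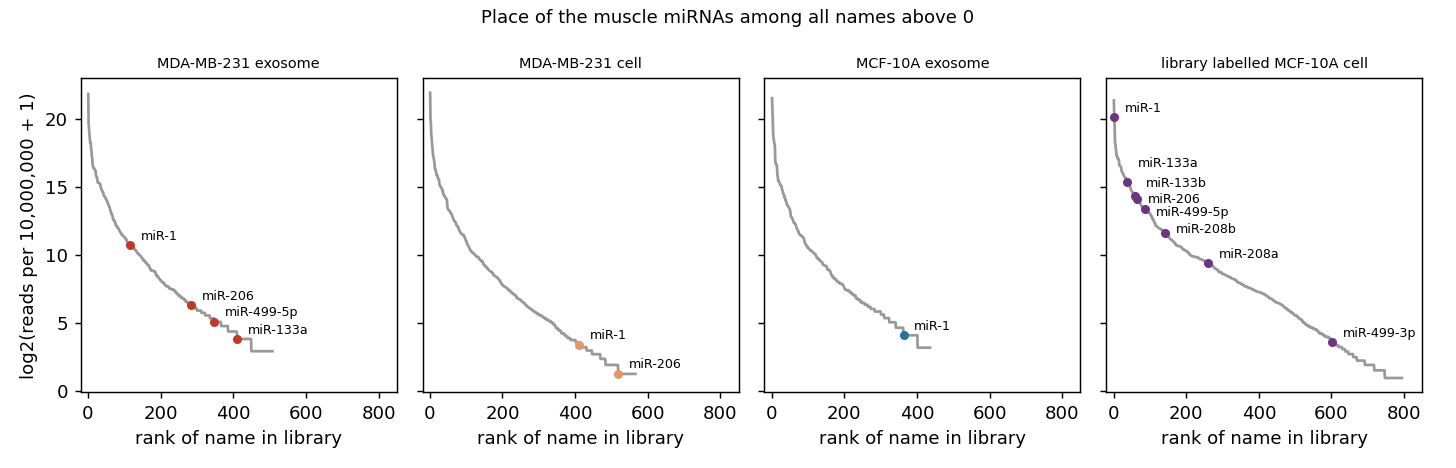
Names above 0 in each library in order of level (y axis, log2 of reads per 10,000,000 plus 1; x axis, rank), with the muscle miRNAs as points. In the library labelled MCF-10A cell miR-1 is at rank 2 and 5 further members lie between ranks 37 and 142, while the members of the other libraries lie at rank 116 or beyond.

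The members are of nearly equal length, 21 or 22 bases, so levels of different members were compared without a length correction. How well each sequence ligates was not measured. In the library labelled MCF-10A cell the order from high to low was miR-1, miR-133a, miR-133b, miR-206, miR-499-5p, miR-208b, miR-208a and miR-499-3p, with Poisson intervals that did not overlap between neighbours. The places of miR-133a, miR-133b and miR-206 in this order depend on the uncertain split of reads between the miR-133 names, which those intervals do not cover. In cancer-line exosomes the order was miR-1, miR-206, miR-499-5p and miR-133a. There the intervals of miR-206 and miR-499-5p overlapped (40.4 to 137 against 10.6 to 76.1 per 10000000), as did those of miR-499-5p and miR-133a (1.58 to 47.1).

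The first comparison set the exosomes of MDA-MB-231 against those of MCF-10A, which also differ in medium and serum. miR-1 was 106-fold higher in cancer-line exosomes (exact 95% counting interval 28.9 to 876), and miR-206, with 12 against 0 reads, at least 3.27-fold higher. A fold given as at least sets 0 reads at 3 reads and takes the other library's reads as exact. It is thus larger than the lower limit of the counting interval. For miR-499-5p the reads were 5 and 0, or 1.36-fold with 0 set at 3 reads. Its 95% counting interval did not leave out 1, so no difference was shown for it by counting. miR-133a had 2 against 0 reads, a ratio with a 95% counting interval from 0.154 upward, and the other 4 members were at 0 in both.

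By the deposited log2 values, which add 1 per 10000000, the differences were 6.64 for miR-1, 6.31 for miR-206, 5.07 for miR-499-5p and 3.81 for miR-133a. A name was compared if it reached 10 per 10000000 in 1 of the libraries, and called at 4-fold, a log2 difference of 2. By that rule 4 of the 4 members compared were higher, beside 29.3% of the 505 names (148 higher and 96 lower). Of these, miR-206, miR-499-5p and miR-133a reached the minimum only through cancer-line exosomes, where they are high, so the count gives no support of its own. A second rule, called the read rule, asked for 10 reads or more in 1 library and a counting interval of the ratio that leaves out 1. By it miR-1 and miR-206 were higher, beside 33.9% of all names (171 higher and 98 lower). The median difference was 5.69 for the members compared and 0.59 for all names, and the members' median carries the same limit as their count. The names with 0 reads in MCF-10A exosomes depended on how 0 was treated. With 10 added in place of 1, miR-206 (3.14) and miR-499-5p (2.09) still passed 4-fold and miR-133a (1.20) did not. With 0 set at 3 reads and nothing added, miR-206 stood at 1.71 and miR-499-5p at 0.45, both under 4-fold.

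Several lists of other tissues had names on the same side as the members. All 4 smooth muscle names (miR-143, miR-143*, miR-145 and miR-145*), all 4 erythroid, all 4 leukocyte, both endothelial, 5 of 5 fibroblast and 15 of 15 names of the imprinted 14q32 cluster passed 4-fold by the deposited values. So did 1 of 1 liver and 1 of 1 placental names compared, the placental name on 3 reads against 0. Of the neural names 3 of 6 did and 1 was lower, of gut and kidney 0 of 3, and of pancreatic islet 0 of 2 with 1 lower. Over all names compared, 29.3% passed 4-fold in that direction. Listed names under the minimum in both libraries were left out. The 14q32 list holds 24 names, of which 12 had 10 or more reads in cancer-line exosomes. The counts of these lists thus give no support of their own. The part of these lists in the result for the muscle miRNAs was not tested. miR-143 of smooth muscle had 8745 against 21 reads, and all 4 smooth muscle names together held 0.573% of cancer-line exosomes, more than the 0.0181% of the myomiRs.

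The next comparison, within the cancer line, asks which miRNAs the vesicles hold at other levels than their parent cells. miR-1 was 177-fold higher in the exosomes (84.5 to 444) and miR-206 57.5-fold (8.51 to 2458, on 12 against 1 read). miR-499-5p, with 5 against 0 reads, was at least 7.99-fold higher (interval from 4.39 upward), and miR-133a had 2 against 0 reads (interval from 0.900 upward). The deposited differences were 7.32, 5.07, 5.07 and 3.81. At 4-fold, 4 of 4 members compared were higher, beside 22.2% of 499 names (111 higher and 67 lower). By the read rule miR-1 and miR-206 were higher, beside 27.7% of names (138 higher and 155 lower). The median was 5.07 for the members and −0.09 for all names. Only cancer-line exosomes put these members past the minimum, and this comparison shares that library with the one before, so their calls are not independent of each other. The members' counts and median give no support of their own.

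The place of miR-1 among all names was less extreme than its fold. Of the 499 names, 5.01% had a larger difference than miR-1 between cancer-line exosomes and cells. Lists of other tissues again stood on that side. All 4 smooth muscle, 4 erythroid, 4 leukocyte, 2 endothelial and 5 fibroblast names compared passed 4-fold towards the exosomes, and so did 15 of 15 names of the 14q32 cluster. So did 1 of 1 liver name. The remaining lists did not follow, with 0 of 6 neural names higher and 1 lower, 1 of 3 of gut and kidney higher, 1 of 3 of pancreatic islet higher and 1 lower, and 0 of 1 placental name higher. The erythroid miR-451 had 4137 reads in the exosomes and 3 in the cells. Over all names compared, 22.2% passed 4-fold towards the exosomes. These lists too count only names past the minimum, so their counts give no support of their own. The part of these lists in the myomiR values was not tested.

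**Figure D3:**
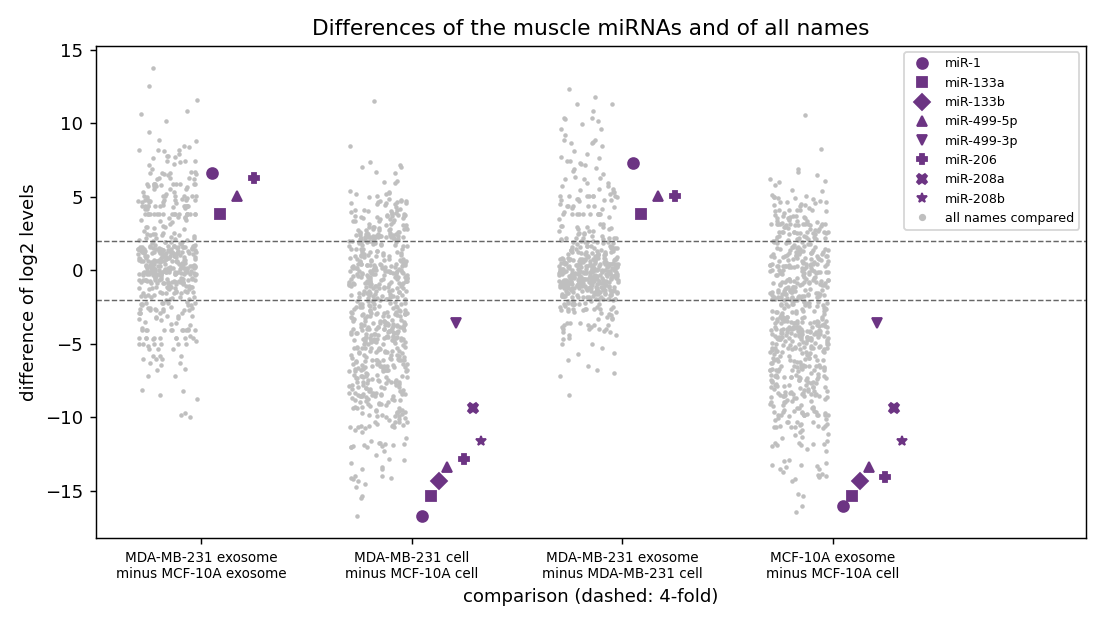
Difference of the deposited log2 levels in each of the 4 comparisons, with all names compared in grey, the muscle miRNAs as purple symbols and dashed lines at 4-fold. The 4 members compared in the exosome comparisons lie between 3.81 and 7.32, and the 8 members compared with the library labelled MCF-10A cell lie between −16.73 and −3.58.

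Against the library labelled MCF-10A cell every member was lower by the deposited values. In cancer-line cells miR-1 was 120418-fold lower (58444 to 299509), and its difference of −16.73 was the lowest of the 665 names compared. miR-206, on 1 read, was 12988-fold lower (2331 to 513042). Names at 0 in cancer-line cells were at least 10514-fold lower for miR-133a, 5043-fold for miR-133b, 2610-fold for miR-499-5p, 781-fold for miR-208b, 163-fold for miR-208a and 2.69-fold for miR-499-3p. At 4-fold, 8 of 8 members were lower, beside 54.3% of all names (361 lower and 115 higher). By the read rule 8 were lower, beside 66.9% (445 lower and 175 higher). The median was −13.13 for the members and −2.83 for all names. The members passed the minimum only through the library labelled MCF-10A cell, so their counts and median give no support of their own.

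MCF-10A exosomes gave like values against the same library. miR-1 was 71982-fold lower (19927 to 594378, on 2 reads). The names at 0 were at least 1796-fold lower for miR-133a, 861-fold for miR-133b, 739-fold for miR-206, 446-fold for miR-499-5p, 133-fold for miR-208b and 27.8-fold for miR-208a, while miR-499-3p lay under the limit of the exosome library. At 4-fold, 8 of 8 members were lower in MCF-10A exosomes, beside 57.2% of 661 names (378 lower and 102 higher). By the read rule 7 were lower, beside 59.2% (391 lower and 119 higher). The median was −13.75 for the members and −3.27 for all names. The members passed the minimum only through the library labelled MCF-10A cell in MCF-10A exosomes as in cancer-line cells, apart from miR-1 in MCF-10A exosomes, and both comparisons share that library. The members' counts and median against MCF-10A exosomes thus give no support of their own either.

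Each level is a share of the library's reads, so abundant names lower the rest. Counting over reads outside the other-tissue lists and the members shifted the scale by −1.05 (log2) in both comparisons with the library labelled MCF-10A cell, and 8 of 8 members were lower in each. Upper-quartile scaling shifted it by 2.42 for cancer-line cells and 2.75 for MCF-10A exosomes. With it all names split into 278 lower and 224 higher for cancer-line cells and 287 lower and 218 higher for MCF-10A exosomes, while 8 of 8 members were again lower in each. The same scaling shifted the exosome comparison by −0.69 and that within the cancer line by −0.46, where 98 names were higher and 97 lower, and 4 of 4 members were higher in each. A trimmed mean of M values shifted the cell comparison by 0.41 and the exosome comparison by −0.28, and those within MCF-10A and within the cancer line by 0.20 and −0.13, with the same counts of members. Apart from miR-1 in MCF-10A exosomes, members passed the minimum only through the library where they are high. The counts of members under each scaling thus give no support of their own.

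The proportions of miR-133a (2 reads) and miR-206 (12 reads) to miR-1 in cancer-line exosomes differed from those in the library labelled MCF-10A cell. Ratios within a library do not depend on its total. miR-133a had 0.775 reads per 100 reads of miR-1 in cancer-line exosomes (exact 95% interval 0.0934 to 2.83), against 3.74 in the library labelled MCF-10A cell (3.71 to 3.78). Counting both miR-133 names as 1, because their reads may be split either way, gave 0.775 (0.0934 to 2.83) against 5.54 (5.49 to 5.58). miR-206 went the other way, with 4.65 reads per 100 of miR-1 in cancer-line exosomes (2.37 to 8.27) against 1.54 (1.52 to 1.56). In both cases the counting intervals did not overlap. This sets 1 library against 1 library, not conditions.

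For miR-499-5p the balance was 1.94 per 100 reads of miR-1 (0.624 to 4.58) against 0.929 (0.912 to 0.946), within counting error. miR-133b had 0 reads beside 258 of miR-1, which allows up to 1.44 per 100 at the upper 95% bound, against 1.79 (1.77 to 1.82). The balances of miR-499-5p, miR-133b and the summed miR-133 names to miR-1 were chosen after their values were seen. At the proportions of the library labelled MCF-10A cell, 258 reads of miR-1 would come with 9.65 of miR-133a, 4.63 of miR-133b, 3.98 of miR-206, 2.40 of miR-499-5p and 0.717 of miR-208b. The observed reads were 2, 0, 12, 5 and 0. The absence of the cardiac miR-208 pair from cancer-line exosomes was thus not informative, since under 1 read of each would be present at that proportion.

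**Figure D4:**
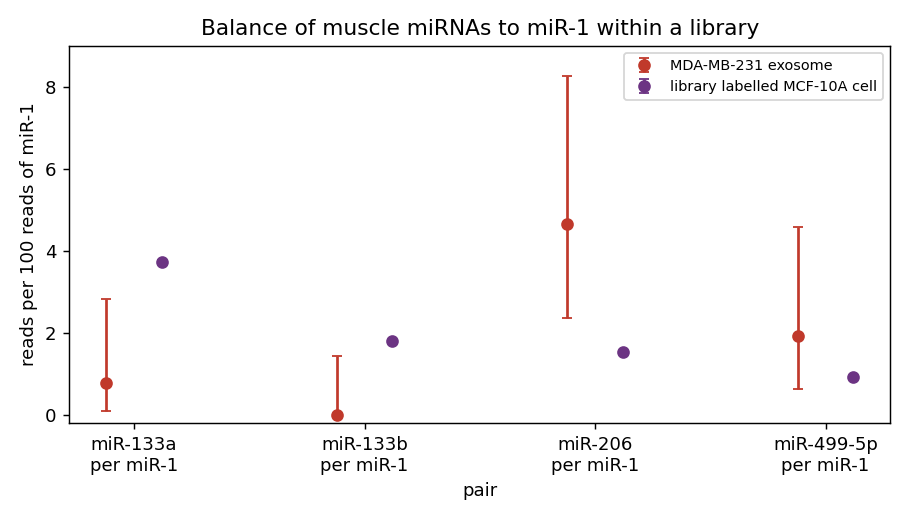
Reads of 4 muscle miRNAs per 100 reads of miR-1 within MDA-MB-231 exosomes and within the library labelled MCF-10A cell, with exact 95% intervals on the reads. miR-206 is higher to miR-1 in MDA-MB-231 exosomes (4.65 against 1.54) and miR-133a lower (0.775 against 3.74), while the intervals of miR-499-5p overlap.

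miR-1 still took a like part of the member reads in both, 93.1% in cancer-line exosomes (Wilson 95% interval 89.5 to 95.6), against 92.3% in the library labelled MCF-10A cell (92.3 to 92.3). miR-206 made up 4.33% of member reads in cancer-line exosomes (2.50 to 7.42), against 1.42% in the library labelled MCF-10A cell (1.40 to 1.44). In cancer-line cells 7 of the 8 member reads were miR-1 and 1 was miR-206, too few to set beside these shares.

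Set against names of other tissues, the muscle miRNAs of cancer-line exosomes were at a low share of their level in the library labelled MCF-10A cell. The share was 0.147% for miR-1 (exact 95% interval 0.129 to 0.166), 0.443% for miR-206 (0.229 to 0.774), 0.306% for miR-499-5p (0.0993 to 0.714) and 0.0304% for miR-133a (0.00368 to 0.110). For the leading name of each other list, it was 2.10% for miR-143 of smooth muscle, 2.27% for miR-199a-3p of fibroblasts, 1.76% for miR-136 of the 14q32 cluster, 1.54% for miR-194 of gut and kidney, 2.18% for miR-375 of pancreatic islets and 4.79% for miR-9 of neural cells. It was 19.2% for the erythroid miR-451, 36.9% for the endothelial miR-126, 88.3% for miR-142-3p of leukocytes and 144% for miR-122 of liver. miR-517a of the placental cluster on chromosome 19 was at 0, which allows up to 0.119%. The breast epithelial miR-200c stood at 2.07%. The 4 muscle names with reads were below all 10 of these leading names with reads, and the highest upper bound among them, 0.774% for miR-206, was below the lowest lower bound among the 10, 0.877% for miR-375. That does not hold for every name of those lists, since miR-145 of smooth muscle stood at 0.111%, below miR-1. The limit for miR-208a, 2.94%, is too high to place it.

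**Figure D5:**
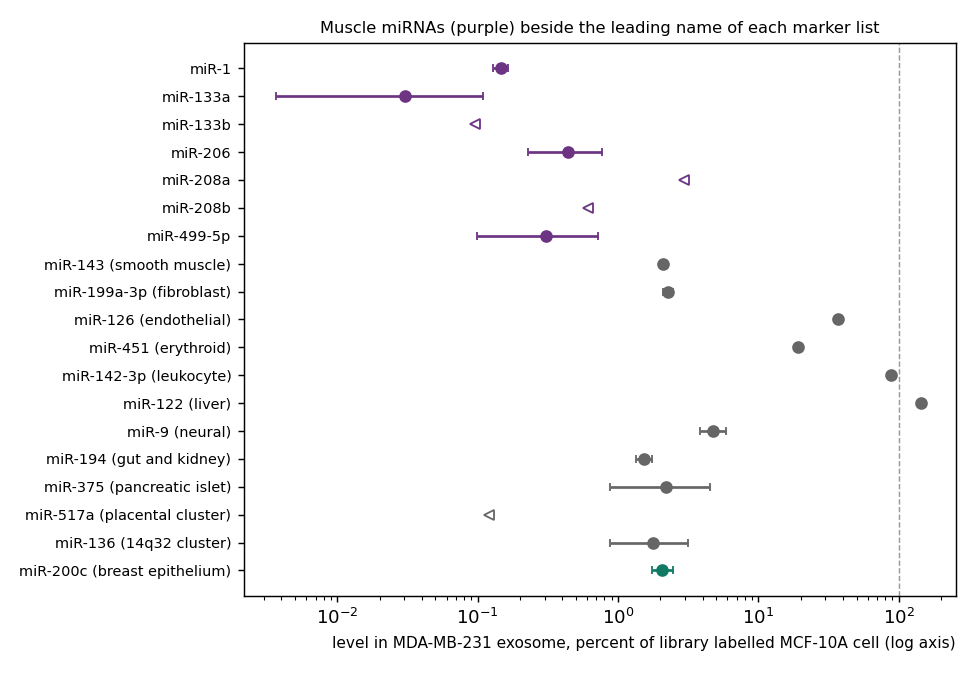
Level in MDA-MB-231 exosomes as a percent of the level in the library labelled MCF-10A cell (log axis), for 7 muscle miRNAs (purple) and the leading name of each marker list (grey, breast epithelium in green), with exact 95% intervals and open triangles at the 3-read limit for names with 0 reads. The muscle names with reads lie between 0.0304% and 0.443%, and miR-122 lies at 144%.

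By the same measure miR-1 in cancer-line cells was at 0.000830% (0.000334 to 0.00171) and in MCF-10A exosomes at 0.00139% (0.000168 to 0.00502). miR-143 stood at 0.00206% (0.00148 to 0.00279) and 0.00618% (0.00382 to 0.00944) in those libraries. miR-1 was thus at or below the share of miR-143 in the 3 other libraries, with overlapping intervals in 2 of them.

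The other muscle names on the lists are given by kind. Of the names listed as further arms or seed mates of the members only miR-613, which shares the seed GGAAUGU, was among the deposited names, and it was at 0 in all 4 libraries. The smooth muscle names followed the striated ones. miR-143 was the most abundant name of the library labelled MCF-10A cell, at 21.37, and stood at 15.80 in cancer-line exosomes, 7.40 in MCF-10A exosomes and 5.83 in cancer-line cells. miR-145 stood at 16.43, 6.63, 0 and 1.90 in the same order. miR-145* had 12.30 and 7.18 in the first pair and miR-143* 11.91 and 4.76, and both were at 0 in the rest.

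The 18 miRNAs listed for muscle differentiation, which many other cell types also make, were above 0 in all 4 libraries but for miR-214, at 0 in MCF-10A exosomes. They held 14.6% of the library labelled MCF-10A cell, 8.70% of cancer-line exosomes, 5.91% of MCF-10A exosomes and 10.5% of cancer-line cells. Of the 17 compared between exosomes, 7 passed 4-fold towards the cancer line, 0 passed it the other way and 10 lay within. Over all names 29.3% were higher and 19% lower. Between cancer-line exosomes and cells, 1 was higher, 2 lower and 14 within, beside 22.2% higher and 13.4% lower over all names. Against the library labelled MCF-10A cell, 5 of 18 were lower and 2 higher in cancer-line cells, beside 54.3% and 17.3% of all names. In MCF-10A exosomes 11 of 18 were lower and 1 higher than in that library, beside 57.2% and 15.4% of all names. The median differences were 1.37, 0.92, −0.92 and −2.32 in the order of these comparisons. The 4 with the highest mean level over the libraries are given for the library labelled MCF-10A cell, cancer-line exosomes, MCF-10A exosomes and cancer-line cells in turn. miR-24 stood at 18.16, 17.68, 16.31 and 18.36, and miR-378 at 15.10, 16.39, 18.26 and 17.91. miR-27a stood at 16.94, 16.37, 15.38 and 17.25, and miR-27b at 17.10, 17.10, 14.79 and 16.14. These 4 were chosen for their level, so they do not stand for the list. miR-26a, named here after its values were seen, was the highest of the list in the library labelled MCF-10A cell at 18.30 and stood between 12.43 and 13.80 in the others.

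The names with the pattern most like each member were sought among 559 other names that reached 50 per 10000000 in 1 library, by the Euclidean distance of log2 levels over the 4 libraries after centring each name on its own mean. For miR-1 they were miR-145 (distance 2.15), miR-143 (2.80) and miR-199a-3p (2.89), beside a median distance of 11.9 over all candidates. miR-145 was also nearest to miR-133a (2.09), followed by miR-517a of the placental cluster and miR-517b (both 3.11). For miR-206 they were miR-199a-5p (1.58), miR-143* (1.60) and miR-136 (1.74), and for miR-499-5p miR-143* (1.21), miR-136 (1.78) and miR-376c (1.90). Apart from miR-517a and miR-517b, these are names of smooth muscle, fibroblasts and the 14q32 cluster. Of the 4 members with reads only in the library labelled MCF-10A cell, 3 lay closest to other names of that kind, miR-133b to miR-135a (0.0779), miR-208a to miR-523 (0.0260) and miR-208b to miR-518c (0.0779). Next came miR-517a and miR-517b for miR-133b (both 0.286), and miR-520g (0.104) and miR-518e (0.191) for miR-208a. For miR-208b the next were miR-517c (0.147) and miR-512-3p (0.165). The fourth, miR-499-3p, lay closest to miR-378c (0.122), which had reads in every library. In all, 124 names had 10 or more reads in that library and 0 in the others, among them miR-133b, miR-208a, miR-208b and miR-499-3p. With 4 libraries, 1 of which stands apart, the distance mostly records the level in that library.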

How the data were processed

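The members, lists and tests were chosen with earlier results of these data known. The deposited values are log2 values of 1100 names per library, 1 library per group. Per the submitters' processing notes, Novoalign, edgeR and hg18 were used, with no version or role given. Per the labels' protocols, RNA was selected at sizes of 17 to 52 nt and ligated at the 5′ monophosphate. For the miRNA annotation no release is given in the sources used here. Per the values, the authors' scale is inferred: undoing the log2 and its added 1 gave sums of 9992361 to 10004141 a library, so values were read as log2 of reads per 10000000 plus 1. Reads were recovered at the step at which 100% of resolvable names (rounding interval under 0.5 reads wide, 40.1% to 65.7% of names above 0) held a whole number within the rounding of 0.005 log2. Intervals and limits cover counting error only, since PCR reads without molecular identifiers are not independent molecules. With 1 library per group nothing was tested across replicates.

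Named miRNAs were all members, the listed arms, seed mates and smooth muscle names, the 4 muscle differentiation names with the highest mean level, the leading name of each other-tissue list in the library labelled MCF-10A cell, and the 3 names most alike to a member with 10 or more reads. The prefix for human is left out. The 9 alternatives per comparison included other scalings, pseudocounts, minimums and call rules. Trimmed means of M values used trims of 30% and 5%. The scripts, tested on simulated data, used Python 3.11.15, numpy 2.4.6, pandas 2.3.3, scipy 1.17.1 and matplotlib 3.10.9.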

Additional observations from a re-analysis of the deposited data

Results flagged for a closer look

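For 4 members the difference between exosomes and cells went opposite ways in the lines, higher in the exosomes of MDA-MB-231 and lower in those of MCF-10A. The gap between these differences (log2, the first minus the second) was 23.37 for miR-1 (7.32 and −16.05), 19.20 for miR-133a (3.81 and −15.39), 19.18 for miR-206 (5.07 and −14.11) and 18.45 for miR-499-5p (5.07 and −13.38). With 1 library in each group this gap was not tested. The values for miR-133a, miR-206 and miR-499-5p use the added 1 where a library had 0 reads, so their size is set by it. In MDA-MB-231 the direction for miR-133a (2 against 0 reads) and miR-499-5p (5 against 0) did not pass the read rule, while miR-1 and miR-206 did. On the MCF-10A side each value depends on the cell library that stood apart from the other 3 libraries.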

How the results depend on the processing

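In MDA-MB-231 against MCF-10A exosomes, the 4 members higher became 1 with recovered reads and 0 set at 3 reads, 2 with a minimum of 50 and 2 by the read rule. Against MDA-MB-231 cells they became 2 with a minimum of 50 and 2 by the read rule. These settings act on names with few reads: miR-133a has 2, miR-499-5p 5 and miR-206 12. With recovered reads miR-206 also fell under 4-fold between exosomes (1.71), and miR-133a was not compared. Without miR-1 the members held 0.957% of the library labelled MCF-10A cell, 0.00124% of MDA-MB-231 exosomes, 0% of MCF-10A exosomes and 1.36e-05% of MDA-MB-231 cells. Over the reads outside the other-tissue lists the first library's share of members was 20.5% in place of 12.4%. The other 78 recomputed counts, shares and balances stayed within 1.5 times or within their counting interval, among them all counts of lower members. Counts of members carry the limit of the minimum given above. Dropping the minimum, raising it to 50 or calling at 2-fold left each single member's difference unchanged. Those settings could not lose the call of a name still compared, so part of the values that kept it was fixed in advance. Of single members' differences, 195 kept their direction and call, 12 kept their direction and lost the call, and 1 reversed. That was miR-499-3p in MCF-10A exosomes, 1.12 higher (log2) than the library labelled MCF-10A cell with 0 set at 3 reads, because the limit of the shallower library exceeds the 12 reads of the deeper. Depth limits every statement on names at 0. No paired analysis was possible because each group has 1 library.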
